A study of Cenococcum geophilum 1.58 with 6 samples.

Results

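Cenococcum geophilum is an ectomycorrhizal ascomycete that wraps tree root tips in a black mantle of hyphae. Described here are 6 of its genes that encode secreted enzymes acting on cellulose and related glucans, out of 14748 genes counted. They were taken by their identifiers and by the families the study gives them. All 6 are on the study's list of secreted proteins regulated in ECM, which was drawn up in part on these same libraries, and earlier results of these data were known when they were chosen, so that their direction and the number called are a description and not independent evidence. They are 3 GH12 genes (Cenge3:612897, Cenge3:659517 and Cenge3:648294), the CBM1-GH45 gene Cenge3:624791, the GH131 gene Cenge3:617560 and the CBM1-GH5-4 gene Cenge3:658348, with gene spans from 1435 to 2584 bp. RNA-Seq libraries came from ectomycorrhizal (ECM) root tips of poplar, Populus tremula x Populus alba clone INRA 717-1B4, colonized in vitro by C. geophilum 1.58 (3 libraries), and from free-living mycelium (FLM) of the same isolate grown in pure culture under the same conditions (3 libraries). All were harvested at day 60. Both groups thus hold 1 fungal isolate, and the ECM group 1 host clone.

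Plant cell walls are built of cellulose fibres laced together by xyloglucan and embedded in pectin. GH12 enzymes are endoglucanases that cut cellulose or xyloglucan chains internally. GH45 enzymes are small endoglucanases with a fold related to that of plant expansins, the proteins that loosen walls without cutting them. GH131 enzymes are fungal glucanases able to cut more than one kind of glucan linkage, and GH5 enzymes of subfamily 4 are endoglucanases, several of which also cut xyloglucan or other glucans. CBM1 is a small fungal module that binds cellulose, and 2 of the 6 proteins carry it beside their catalytic domain. Ectomycorrhizal fungi have in general lost many of the enzymes with which wood decayers break down cell walls, and those they keep have been linked to growth between root cells. No sequence of these genes or proteins was used here.

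The total count ranged from 11197509 to 14396613 in the poplar ECM libraries and from 52305281 to 54586073 in the FLM libraries. Only fungal genes were counted, and the reason for the lower totals in poplar ECM was not tested. The 10 genes with the most counts took from 7.61% to 19.9% of the counts in poplar ECM and from 4.12% to 4.89% in FLM, and the normalization factors that allow for this (edgeR's TMM method) lay between 0.803 and 1.00 in poplar ECM and between 1.08 and 1.16 in FLM. As a check of the labels, the 22 small secreted proteins that the study had picked as mycorrhiza-induced in a greenhouse trial with pine were looked at. Of the 20 tested 10 were up-regulated in poplar ECM and 0 down-regulated, by the limits given below. Over all genes tested 9.94% were up- and 3.28% down-regulated. Poplar ECM replicate 1 and all FLM libraries were run on a HiSeq-2000 sequencer and poplar ECM replicates 2 and 3 on a HiSeq-2500, so that sequencer and group are partly mixed. Among the HiSeq-2000 libraries alone, or with the sequencer as a term in the fit, the difference between the groups thus rests on poplar ECM replicate 1. In such bulk samples fewer cells that express a gene and less of its RNA per cell cannot be told apart.

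All 6 genes were expressed in every library, with 213 to 1422 counts in poplar ECM and 200 to 2955 in FLM, and all 6 passed the filter on low counts. The raw counts entered edgeR's quasi-likelihood test over 12692 genes, those that reached 10 counts in 3 or more of the libraries. Regulated here means that the log2 fold change exceeded 1 in either direction and that p, adjusted after Benjamini and Hochberg over all genes tested, was under 0.05. Levels are given as normalized FPKM, that is counts per kilobase of gene span and per 1000000 counts, scaled with the TMM factors for comparison between libraries. The span includes introns, so that levels of different genes, and their order, hold only per length of that span. Of the 6 genes 4 were up-regulated in poplar ECM and 0 were down-regulated: GH131, CBM1-GH45 and the GH12 genes Cenge3:612897 and Cenge3:659517. Across all genes tested 9.94% were up-regulated (1262 genes) and 3.28% down-regulated (416 genes). Scaling by library totals alone turned that split to 838 up and 1217 down and put the median log2 fold change over the tested genes at -0.33 (0.0097 with TMM), but it left the same number of the 6 genes, 4, called up. With TMM scaling each poplar ECM library lay above each FLM library in all 6 genes. This was so for 22.2% of all genes tested, while in 21.4% each poplar ECM library lay below. The separation of all 6 depended on that scaling. In the authors' FPKM, without the TMM factors, Cenge3:658348 was higher in FLM replicate 2 (20.95) than in any poplar ECM library (15.35, 17.31 and 19.32). In the authors' TPM the groups overlapped for Cenge3:658348, Cenge3:648294 and Cenge3:659517, and not for the other genes. The median log2 fold change of the 6 genes was 1.77, against 0.0097 over all genes tested. Because the study listed the 6 genes for regulation, these counts and this median were partly fixed by the choice, and nothing is read from their distance to the values over all genes.

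**Figure D1:**
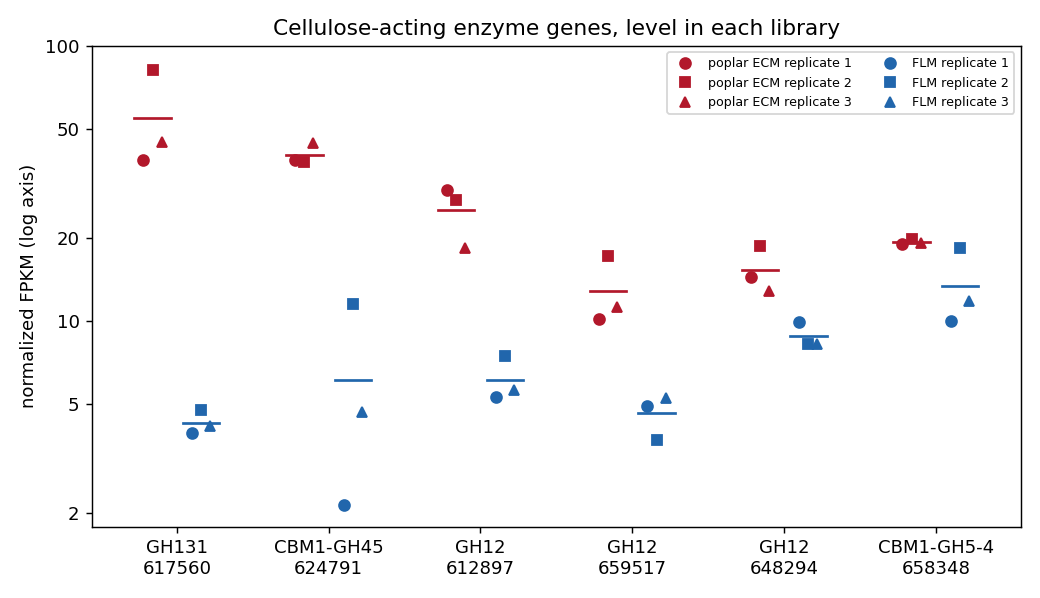
Normalized FPKM (log axis) of the 6 genes in each library, with poplar ECM in red and FLM in blue, a marker shape per replicate and a bar at each group mean. The GH131 gene sits between 38.4 and 81.6 in poplar ECM and between 3.92 and 4.76 in FLM, while FLM replicate 2 of the CBM1-GH5-4 gene, at 18.4, comes close to the poplar ECM libraries, at 19.1 to 19.9.

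The GH131 gene Cenge3:617560 rose most of the 6. Its normalized FPKM was 38.4, 81.6 and 44.6 in poplar ECM replicates 1, 2 and 3, against 3.92, 4.76 and 4.14 in FLM replicates 1, 2 and 3. The groups lay far apart, with tightly grouped FLM libraries and with poplar ECM replicate 2 standing above the other poplar ECM libraries. The mean was 54.9 ± 23.3 in poplar ECM and 4.27 ± 0.437 in FLM (SD, n = 3 each). This 12.8-fold difference, 3.68 on the log2 scale (95% interval 3.04 to 4.33, standard error 0.290), had an adjusted p of 9.9e-06 in edgeR's quasi-likelihood test. It had rank 157 among the log2 fold changes of the 12692 genes tested. The raw counts behind it were 637, 1422 and 718 in poplar ECM and 350, 424 and 337 in FLM, where the libraries are several times as deep. Without poplar ECM replicate 2 the log2 fold change was 3.28, and among the HiSeq-2000 libraries alone (poplar ECM replicate 1 and FLM) it was 3.13.

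The CBM1-GH45 gene Cenge3:624791, a presumed endoglucanase with a cellulose-binding module, was the second in its rise. Its normalized FPKM was 38.5, 37.9 and 44.4 in poplar ECM, against 2.15, 11.5 and 4.68 in FLM replicates 1, 2 and 3. Here the spread lay in FLM, where the highest library had 5.35 times the level of the lowest, while the poplar ECM libraries differed by no more than 1.17 times. Raw counts in FLM were 200, 1067 and 397. On the log2 scale the SD of the FLM libraries was 1.20, above that of 99.8% of the genes tested (median 0.161). The log2 fold change was 2.72 (standard error 0.477, 95% interval 1.66 to 3.78, adjusted p = 0.00233, edgeR's quasi-likelihood test), a 6.60-fold difference. It was 3.56 without FLM replicate 2 and 2.31 without FLM replicate 1. Among the HiSeq-2000 libraries alone, with replicate 1 as the only poplar ECM library, it was 2.63 and the call was lost.

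The 3 GH12 genes, of the family of endoglucanases and xyloglucanases, differed in how much they changed. Cenge3:612897 had a normalized FPKM of 29.98, 27.5 and 18.5 in poplar ECM replicates 1, 2 and 3, against 5.28, 7.46 and 5.61 in FLM. It rose 4.14-fold, with a log2 fold change of 2.05 (standard error 0.226, 95% interval 1.55 to 2.55, adjusted p = 0.000117, edgeR's quasi-likelihood test), and the groups lay well apart. Cenge3:659517 had a normalized FPKM of 10.2, 17.2 and 11.3 in poplar ECM, against 4.92, 3.71 and 5.23 in FLM. It rose 2.79-fold, with a log2 fold change of 1.48 (standard error 0.239, 95% interval 0.95 to 2.01, adjusted p = 0.00142, edgeR's quasi-likelihood test). Poplar ECM replicate 2 was the highest library of this gene, as it was for GH131, and FLM replicate 2 the lowest. With the sequencer as a term, where the difference rests on poplar ECM replicate 1, its adjusted p was 0.0604 (edgeR's quasi-likelihood test). The log2 fold change was then 1.14, and the call was lost.

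The third GH12 gene, Cenge3:648294, differed least of the family. It had a normalized FPKM of 14.5, 18.7 and 12.9 in poplar ECM, against 9.91, 8.28 and 8.25 in FLM. The groups did not overlap but lay close together, and the log2 fold change was 0.80 (standard error 0.195, 95% interval 0.37 to 1.23, adjusted p = 0.0134, edgeR's quasi-likelihood test), so that the gene was higher in poplar ECM but below the limit on the fold change. The interval reached a 2.35-fold difference at its upper end. The adjusted p was 0.0602 without FLM replicate 2 and 0.0579 without FLM replicate 3 (same edgeR test). With all libraries it also missed 0.05 when these were scaled by their totals (0.131), with the sequencer as a term (0.159) and with limma on log2(FPKM + 1) (0.153). Among the HiSeq-2000 libraries alone the log2 fold change was 0.68. Over all genes tested 16% had an adjusted p under 0.05 with a higher level in poplar ECM, whatever the size of the difference.

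Within a library the ratio of 2 GH12 genes does not depend on how libraries are scaled. Cenge3:612897 had 2.07, 1.47 and 1.44 times the level per length of Cenge3:648294 in poplar ECM, against 0.533, 0.901 and 0.680 times in FLM. Per length of gene span, introns included, it was thus the higher of this pair in each poplar ECM library and the lower in each FLM library. The order depends on that length: in raw counts Cenge3:612897 was also the higher in FLM replicate 2 (843 against 757). The ratio of Cenge3:659517 to Cenge3:648294 was 0.702, 0.923 and 0.874 in poplar ECM, against 0.496, 0.448 and 0.634 in FLM, also without overlap. The ratio of Cenge3:612897 to Cenge3:659517 was 2.95, 1.598 and 1.64 in poplar ECM, against 1.07, 2.01 and 1.07 in FLM, and these ranges overlapped. For the first and second of these ratios the exact two-sided permutation test gave p = 0.1, the smallest that 3 libraries against 3 can give (0.15 adjusted over the 3 ratios), and for the last p = 0.3, so that no difference between GH12 genes can pass a limit of 0.05 by this test.

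The CBM1-GH5-4 gene Cenge3:658348, the other protein with a cellulose-binding module, was not called. It had a normalized FPKM of 19.1, 19.9 and 19.3 in poplar ECM, against 9.99, 18.4 and 11.8 in FLM. Its poplar ECM libraries were nearly equal, with an SD on the log2 scale of 0.0322, below that of all but 1.07% of the genes tested (median 0.294), whereas FLM replicate 2 stood above the other FLM libraries and close to poplar ECM. The log2 fold change was 0.54 (standard error 0.221, adjusted p = 0.10, edgeR's quasi-likelihood test), and its 95% interval, 0.04 to 1.03 before any adjustment for the number of genes, reached a 2.04-fold difference. Without FLM replicate 2 it was 0.83 with an adjusted p of 0.0189 (same edgeR test).

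**Figure D2:**
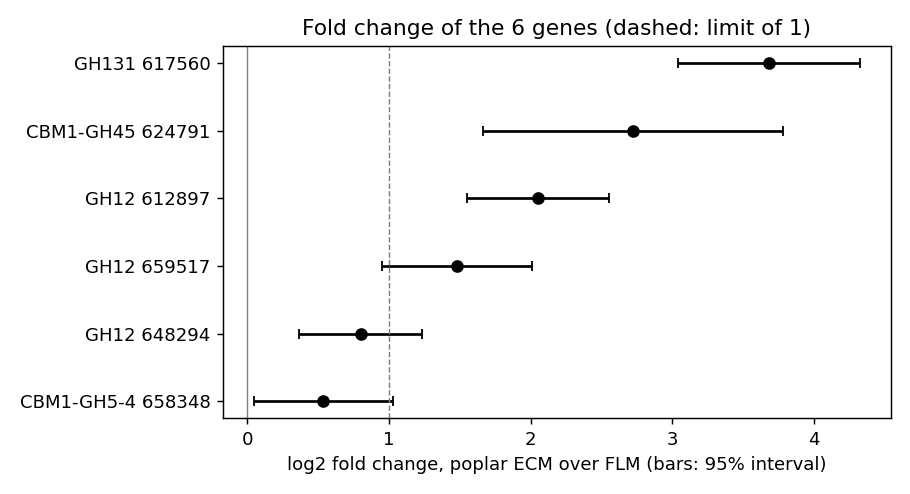
Log2 fold change of each of the 6 genes in poplar ECM over FLM from edgeR's quasi-likelihood fit (points) with its 95% interval (bars), the dashed line marking the limit of 1. The estimates run from 3.68 for GH131 to 0.54 for CBM1-GH5-4, and the intervals of CBM1-GH5-4 and of the GH12 genes Cenge3:648294 and Cenge3:659517 (0.95 to 2.01) lie across the limit.

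The order of the 6 genes by mean level differed between the groups. In poplar ECM the highest mean was that of GH131 (54.9), followed by CBM1-GH45 (40.3), the GH12 gene Cenge3:612897 (25.3), CBM1-GH5-4 (19.4) and the GH12 genes Cenge3:648294 (15.4) and Cenge3:659517 (12.9), all in normalized FPKM. In FLM the highest was CBM1-GH5-4 (13.4), followed by Cenge3:648294 (8.81), Cenge3:612897 (6.12), CBM1-GH45 (6.10), Cenge3:659517 (4.62) and GH131 (4.27). By its mean GH131 thus held the first place in poplar ECM and the last in FLM. Within libraries it ranked 2, 1 and 1 in poplar ECM replicates 1, 2 and 3, against 5, 5 and 6 in FLM. CBM1-GH5-4 ranked first in each FLM library, and the GH12 gene Cenge3:612897 held the third place by its mean in both groups. Without division by gene span 2 pairs changed order in poplar ECM. In mean normalized counts CBM1-GH5-4 (50.3) then stood above Cenge3:612897 (46.1), and Cenge3:659517 (26.7) above Cenge3:648294 (22.6). In FLM, too, the order changed, with Cenge3:659517 (9.58) above CBM1-GH45 (9.14). Not all neighbours in these orders were apart. In poplar ECM the libraries of GH131 and CBM1-GH45 overlapped in range, as did those of Cenge3:612897 and CBM1-GH5-4 and those of the last pair. In FLM CBM1-GH5-4 and Cenge3:648294 were each clear of the gene below, and the 4 lower genes overlapped from one to the next. Among all genes tested, ranked by normalized FPKM within a library, the 6 genes lay between the percentiles 29.999 and 83.9 in poplar ECM and between 10.5 and 47.3 in FLM. In FLM each of them thus lay below the median gene.

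Together the 6 genes had a summed normalized FPKM of 151, 203 and 151 in poplar ECM, against 36.2, 54.1 and 39.7 in FLM, and the ratio of the means was 3.88. The make-up of this sum was compared as the share of each gene in the summed TPM of the 6, which needs no scaling between libraries. GH131 supplied 25.5%, 40.2% and 29.5% in poplar ECM, against 10.8%, 8.79% and 10.4% in FLM. CBM1-GH5-4 supplied 12.7%, 9.83% and 12.8% in poplar ECM, against 27.6%, 34.0% and 29.8% in FLM. Cenge3:648294 supplied 9.62%, 9.20% and 8.54% in poplar ECM, against 27.4%, 15.3% and 20.8% in FLM. These 3 shares did not overlap between the groups (p = 0.1 each, exact two-sided permutation test, the smallest that 3 against 3 can give, and 0.2 adjusted over the 6 genes). Those of CBM1-GH45, Cenge3:659517 and Cenge3:612897 overlapped, with mean shares of 24.6%, 7.57% and 15.2% in poplar ECM and of 13.0%, 11.2% and 14.2% in FLM (exact p of 0.2, 0.3 and 1, in that order). For Cenge3:612897 the sign of the difference rested on poplar ECM replicate 1: it was 1.07 points with all libraries and -1.25 points without that one.

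**Figure D3:**
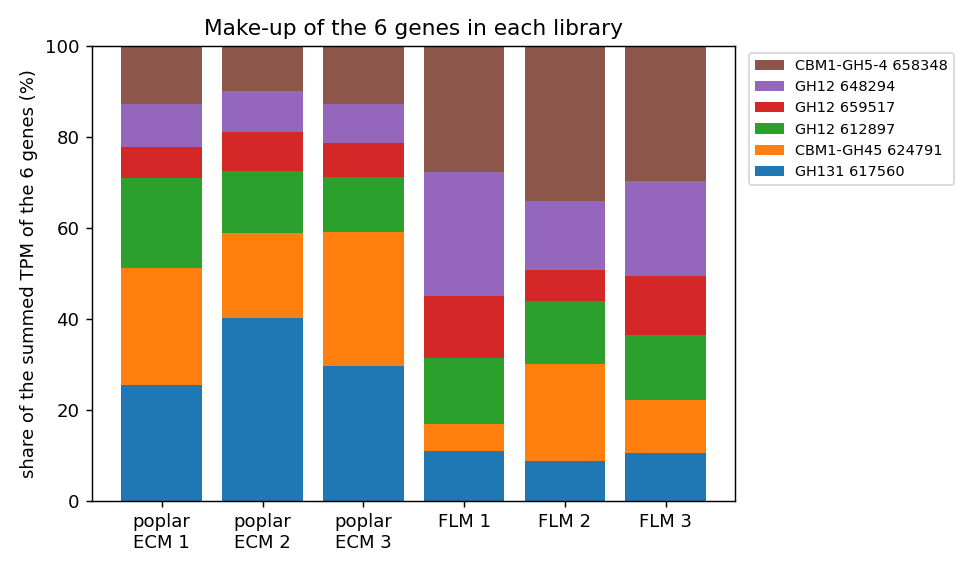
Share of each of the 6 genes in their summed TPM (per cent, stacked bars), one bar per library with poplar ECM on the left and FLM on the right. GH131, at the foot of each bar, takes 25.5% to 40.2% in poplar ECM and 8.79% to 10.8% in FLM, and CBM1-GH5-4, at the top, takes 9.83% to 12.8% in poplar ECM and 27.6% to 34.0% in FLM.

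FLM replicate 2, in which CBM1-GH45 and CBM1-GH5-4 were highest of the FLM libraries, was set beside the other CAZymes of the study's list of regulated secreted proteins, after its values were seen. In 2 of the 6 genes its normalized count was more than 1.5 times the higher of the other FLM libraries, namely 2.46 times in CBM1-GH45 and 1.56 times in CBM1-GH5-4. It was also the highest FLM library for Cenge3:612897 (1.33 times) and GH131 (1.15 times), but not for Cenge3:659517 (0.708 times) and Cenge3:648294 (0.835 times). Of the 17 other listed CAZymes grouped with plant cell walls 3 did the same: the GH45 gene without a binding module, Cenge3:689547 (2.28 times), the GH28 polygalacturonase Cenge3:672988 (2.21 times) and the GH27-CBM35 gene Cenge3:561645 (1.73 times), of a family of alpha-galactosidases. Of the 15 listed genes of the fungal cell wall 0 passed this ratio in FLM replicate 2, and of all genes tested 1.73%. The 2 of the 6 genes that passed are what drew attention to this library and are not counted with the others. The ratio was also close to 1.5 in a fungal cell wall gene, the CBM50 gene Cenge3:679679 (1.48 times), of a chitin-binding module family. In FLM replicate 1 the share of all genes was 0.701%, with 0 of the 23 listed plant cell wall genes and 0 of the 15 fungal cell wall genes, and in FLM replicate 3 it was 2.03%, with 0 of the 23 and 2 of the 15. In poplar ECM replicate 2, where 5.59% of all genes passed against the other poplar ECM libraries, 2 of the 6 genes did, GH131 and Cenge3:659517. In the 5 genes high in FLM replicate 2 the top place of that library was fixed by how they were picked. Replicate 1 was below replicate 3 in each. The gap was small in Cenge3:672988 (normalized FPKM 3.92 against 4.29) and Cenge3:689547 (1.31 against 1.64), and nothing is read from this order.

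**Figure D4:**
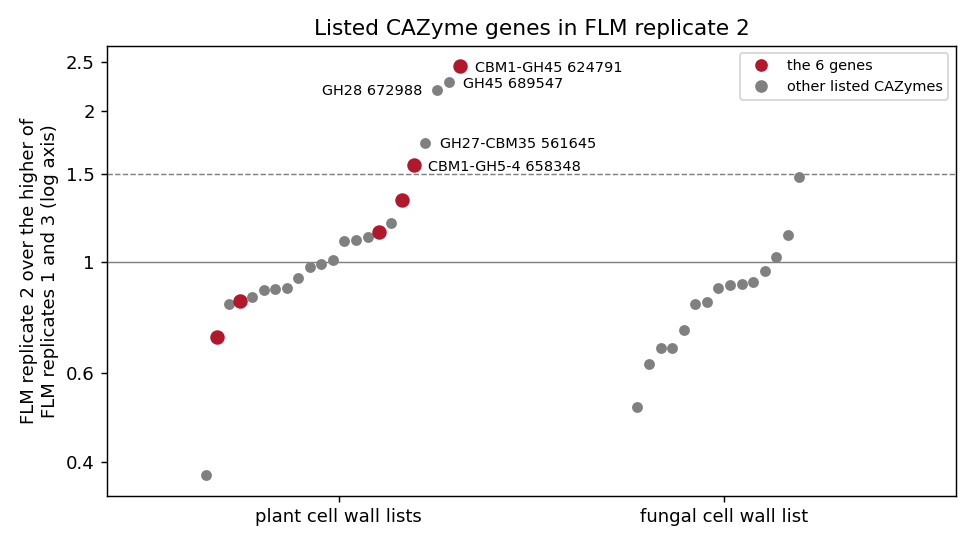
Level in FLM replicate 2 over the higher of FLM replicates 1 and 3 (log axis) for the listed CAZyme genes, each point a gene, with the 6 genes in red, other genes in grey and the dashed line at 1.5. In the plant cell wall lists 5 points lie above the line, 2 of them the genes for which this library was looked at (2.46 for CBM1-GH45 and 1.56 for CBM1-GH5-4), and in the fungal cell wall list 0 do.

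The rest of the cellulose-acting CAZymes in that list are 4 genes, all tested. Their listing rests in part on these same libraries, so that their direction is not independent evidence. The GH45 gene Cenge3:689547 had a normalized FPKM of 6.78, 7.41 and 12.4 in poplar ECM, against 1.31, 3.74 and 1.64 in FLM, and rose with a log2 fold change of 1.99 (with a standard error of 0.424, adjusted p = 0.00702, edgeR's quasi-likelihood test). Both GH45 genes were thus up-regulated, the one with the cellulose-binding module at the higher level in each library. The GH5-5 gene Cenge3:693399, of another subfamily of endoglucanases, rose by 1.14 on the log2 scale (standard error 0.245, with an adjusted p of 0.00720 in the same edgeR test). The count of 2 up-regulated genes in this list was 1 without FLM replicate 3, with library totals and with limma on log2(FPKM + 1). It was 0 with the sequencer as a term and 0 with glmTreat (edgeR's test against a log2 fold change of 1). The AA9 gene Cenge3:594910, of the family of lytic polysaccharide monooxygenases that cut cellulose by oxidation, stood at 14.5 ± 0.601 in poplar ECM and 12.4 ± 1.25 in FLM, and the GH1 gene Cenge3:689089, of a family of beta-glucosidases, at 23.5 ± 3.88 in poplar ECM and 19.1 ± 1.47 in FLM (normalized FPKM, SD, n = 3 each). Neither was called, with log2 fold changes of 0.23 and 0.30.

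Among other listed CAZymes 4 of 7 genes for hemicelluloses and side chains were up- and 1 down-regulated (median log2 fold change 1.28), and 5 of 6 for pectin were up- and 0 down-regulated (median 1.53). Of 15 genes for the fungal cell wall 7 were up- and 2 down-regulated (median 0.89). Over all genes tested 9.94% were up- and 3.28% down-regulated, but these lists, too, hold genes that were listed for regulation. The largest rises in these lists were those of the GH51 gene Cenge3:685188, of a family of arabinofuranosidases and endoglucanases (3.94), of the CE8 pectin methylesterase Cenge3:708901 (2.75) and of the CBM18-CE4-CBM18 gene Cenge3:708785, of the chitin deacetylase type (5.38), on the log2 scale. The falls were those of the GH115 gene Cenge3:674577, of a family of glucuronidases acting on xylan (-1.14), and of the GH18 chitinase genes Cenge3:71199 (-2.39) and Cenge3:689769 (-1.12). The counts of up-regulated genes moved with the processing. That of the fungal cell wall was 3 with the sequencer as a term and 3 with glmTreat (edgeR's test against a log2 fold change of 1), but 8 without poplar ECM replicate 2. That of pectin was 2 with glmTreat and 2 with limma on log2(FPKM + 1). It was 3 with library totals, with the sequencer as a term, and without FLM replicate 1, FLM replicate 3, poplar ECM replicate 1 or poplar ECM replicate 2. Without poplar ECM replicate 3 it was 6. Of the pectin genes called, Cenge3:661169 had only 6 to 24 counts. Cenge3:672988 had a log2 fold change of 1.02 (adjusted p = 0.0471, edgeR's quasi-likelihood test).

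The gene whose pattern over the 6 libraries was most like that of each of the 6 genes was sought among all genes tested, by the root mean square difference of log2 normalized counts after each gene was centred on its own mean. For CBM1-GH45 it was the GH27-CBM35 gene Cenge3:561645, at 0.219, with a normalized FPKM of 41.9, 47.7 and 48.3 in poplar ECM, against 3.30, 12.3 and 7.10 in FLM. For the 5 others it was a gene outside the study's list of regulated secreted proteins: Cenge3:710237 for GH131 (0.192), Cenge3:626229 for the GH12 gene Cenge3:612897 (0.122), Cenge3:671615 for Cenge3:659517 (0.0693), Cenge3:606037 for Cenge3:648294 (0.0547) and Cenge3:591906 for CBM1-GH5-4 (0.0800). The 6 genes were not each other's closest in pattern: between 138 and 2953 genes were closer to a given one of them than its nearest among the other 5.

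In the RefSeq annotation of assembly version 2.0 the 6 genes lie on 6 different scaffolds, told apart by the order of gene positions, since the table names none. Of their 12 flanking genes 11 were tested, and 5 of these were up- and 0 down-regulated, beside 9.94% of all genes tested that were up-regulated. Both genes next to the GH12 gene Cenge3:648294, itself below the limit, were among them. Cenge3:593638, 2225 bp to its left, rose to a normalized FPKM of 10.4 ± 2.71 in poplar ECM, against 0.244 ± 0.0190 in FLM (SD, n = 3 each), a log2 fold change of 5.41 (with a standard error of 0.280, adjusted p = 5.4e-07, edgeR's quasi-likelihood test). Cenge3:622799, 783 bp to its right, rose by 1.87 on the log2 scale (standard error 0.194, with an adjusted p of 7.4e-05 in the same edgeR test). One neighbour each of CBM1-GH45 (Cenge3:599742, log2 fold change 1.78), of Cenge3:612897 (Cenge3:687768, 1.31) and of Cenge3:659517 (Cenge3:559872, 1.09) was also up-regulated. Neither neighbour of CBM1-GH5-4 was called. On the left of GH131 Cenge3:578799, 3274 bp away, had 0 counts in each library. On its right Cenge3:699003, 15356 bp away, was not called (0.60, adjusted p = 0.119, same edgeR test). The widest of the gaps was that on the right of CBM1-GH45, 28463 bp. The study's tables class 1 of the flanking genes, Cenge3:658349 beside CBM1-GH5-4, as a secreted protein (log2 fold change 0.58, adjusted p = 0.0375, same edgeR test), and the tables used here give no function for the others.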

How the data were processed

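RNA-Seq libraries of poplar ECM and FLM (3 each, biological replicates by their labels) were analysed. The authors quality-trimmed the reads, aligned them to transcripts of genome version 2.0 (HISAT 0.1.4 in the submitters' processing notes) and used featureCounts with strand. The deposited counts are raw. The authors' FPKM divide by gene span, introns included (within 1% of the RefSeq span for 11052 of 11055 genes with an FPKM of at least 5). They were used only in alternatives and to see whether the groups overlapped. In them, as in the authors' TPM, not all of the genes described were free of overlap. The authors' TPM sum to 1000000 per library, with up to 27.4% in 1 gene in poplar ECM, and served only for shares and for that overlap. Of 14748 identifiers 14684 matched RefSeq.

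Normalized FPKM were recomputed from counts, RefSeq spans and TMM factors. Tests used edgeR 4.0.16 (R 4.3.3), checked on simulated data, with the standard error taken as log2 fold change divided by the root of F. Alternatives used DESeq2 1.42.0, the study's tool, and limma 3.58.1 (voom, or log2 of FPKM with pseudocount 1), and permutations SciPy 1.17.1. Members and lists were chosen with earlier results of these data known. By rule the text names the 6 genes, the flanking genes and most similar gene of each, and the largest called rise and fall in each list. The other listed cellulose-acting genes, the second chitinase that fell and the genes high in FLM replicate 2 were added after their values were seen. A planned list by annotated family and a promoter search were not run, as no product names or sequences were used here.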

Additional observations from a re-analysis of the deposited data

How the results depend on the processing

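The 6 log2 fold changes stayed above 0 in all 18 alternatives, among them other scalings, filters, tools and the omission of each library in turn. The calls of GH131 and Cenge3:612897 were the same in all 18, with log2 fold changes from 3.02 to 3.88 and from 1.56 to 2.29. CBM1-GH45 lost its call among the HiSeq-2000 libraries alone (2.63), where replicate 1 is the only poplar ECM library. Cenge3:659517 lost its call with the sequencer as a term (1.14), with glmTreat, edgeR's test against a log2 fold change of 1 (1.48), and with limma on log2(FPKM + 1) (0.98). Cenge3:648294 and CBM1-GH5-4 were called in none of the 18. The number of the 6 genes called up was 4 with each library left out in turn. Over all genes, library totals gave 838 up- and 1217 down-regulated genes, glmTreat 541 and 61, limma on log2(FPKM + 1) 707 and 917, and the sequencer as a term 199 down-regulated. With libraries left out in turn these counts ranged from 1037 to 1422 up and from 322 to 572 down. With replicate numbers as a block 4 of the 6 genes, and 1245 up- and 432 down-regulated genes in all, were called. In that fit CBM1-GH5-4 had a log2 fold change of 0.58 (adjusted p = 0.0247, edgeR's quasi-likelihood test), below the limit on the fold change. Deviations of same-numbered libraries correlated at 0.0330, 0.190 and 0.234. For each poplar ECM replicate this was its highest correlation with an FLM library, the others lying between -0.225 and 0.0806. Whether the numbers pair the samples was not settled, and the main fit did not pair them. The difference in share between poplar ECM and FLM ranged from -1.25 to 2.56 points for Cenge3:612897 with libraries left out in turn and was 5.72 points among the HiSeq-2000 libraries, and that of CBM1-GH5-4 was -22.9 points in raw counts. The causes of these changes were not tested. Each of the 6 genes had at least 200 counts in each library, and thinning all libraries to the smallest changed none of their calls.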
